A study of Mus musculus with 16 samples.

Results

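Heat shock proteins and molecular chaperones were followed in ear skin of 8 male C57Bl/6J mice, each of which was biopsied at about 24 months of age and again at about 30 months. The members were 40 genes listed by symbol: 31 of the cytosol (Hspa14 among them), 5 of the endoplasmic reticulum (ER) and 4 of mitochondria. Of these 40, 39 were found in the table of 45706 genes, and all 39 were among the 21526 genes that passed the filter on low counts. Expression of Hspa14, a cytosolic HSP70-like gene, was not analysed here, because the identifier of that symbol in the annotation used has no row in the table, and no older identifier, under which the gene may have a row, was used. Its promoter window is among those searched for motifs.

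The labels give no transgene and no treatment, so the 16 libraries are grouped by age and animal only. Recorded ages ran from 23.8 to 24.4 months at the first biopsy and from 29.0 to 30.1 months at the second, an interval of 5.0 to 6.3 months. The labels name the earlier group young, although both ages are late in a mouse's life. The study's methods state that one ear was clipped at the earlier age and the other ear at the later age, so age and ear side cannot be told apart. Gene counts summed to 27494852 to 35527197 per library at the earlier age, with a median of 28877001, and to 22967222 to 36162431 at the later age, with a median of 29138399. Markers of skin were abundant: the 7 basal keratinocyte markers summed to 8764 to 17366 CPM (read counts scaled to a common library size) and the 7 fibroblast markers to 2582 to 14208 CPM, and all of them were detected in every library. The 15 skeletal muscle markers were also detected in every library, at 1372 to 14986 CPM at 24 months and 2030 to 12110 CPM at 30 months. In such bulk tissue, fewer cells of a type and less RNA per cell cannot be told apart.

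Chaperones bind unfolded or partly folded proteins and help them reach or keep their native form. HSP70 proteins work in cycles of ATP hydrolysis that are driven by HSP40 (J-domain) partners and reset by nucleotide exchange factors such as those of the HSP110 and BAG families, HSP90 completes the folding of kinases and receptors, and small heat shock proteins hold unfolded proteins without ATP. The heat shock factors Hsf1 and Hsf2 switch on many of these genes, whereas ER chaperones are raised by the unfolded protein response. In skin, Hspb1 is known from differentiating keratinocytes of the epidermis, and Hspb2, Hspb3, Hspb6 and Hspb7 are best known from muscle, as is Cryab from the eye lens and from muscle.

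The first comparison asked whether any chaperone gene differed between the ages within the same mice. None did after correction: 0 of 39 members passed an adjusted p of 0.05 in the quasi-likelihood test of edgeR, blocked by mouse, and the lowest adjusted p among them was 0.279. The same test called 0 of 21526 genes (0.0%). DESeq2 called 240 genes and limma-voom 0, and neither called a member. At an unadjusted p under 0.05 there were 4 members. Of these, 2 were higher at 30 months, Dnajb6 and Bag3 (5.13% of the members, against 4.86% of all genes tested), and 2 were lower, Hsph1 and Chordc1 (5.13%, against 7.18% of all genes tested). In both directions the members' share was thus near that of the genes at large.

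In direction, 16 members were higher and 23 lower at 30 months, with a median log2 fold change of -0.03 beside 0.01 for all genes tested. The cytosolic members split 13 higher to 17 lower (median -0.02), the ER members 1 to 4 (median -0.04) and the mitochondrial members 2 to 2 (median -0.01). Summed over the 39 members, the level was 4822 ± 321 CPM at 24 months and 4774 ± 362 CPM at 30 months (SD, n = 8). The 2 means thus differed by far less than the SD between mice at either age. Hsp90ab1 alone made up 1242 and 1179 CPM of these sums. The number of members that were higher at 30 months ran from 11 of 39 in mouse 50 to 25 of 39 in mouse 13. No member had 2 ages whose libraries did not overlap (0 of 39, against 0.195% of all genes).

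**Figure D1:**
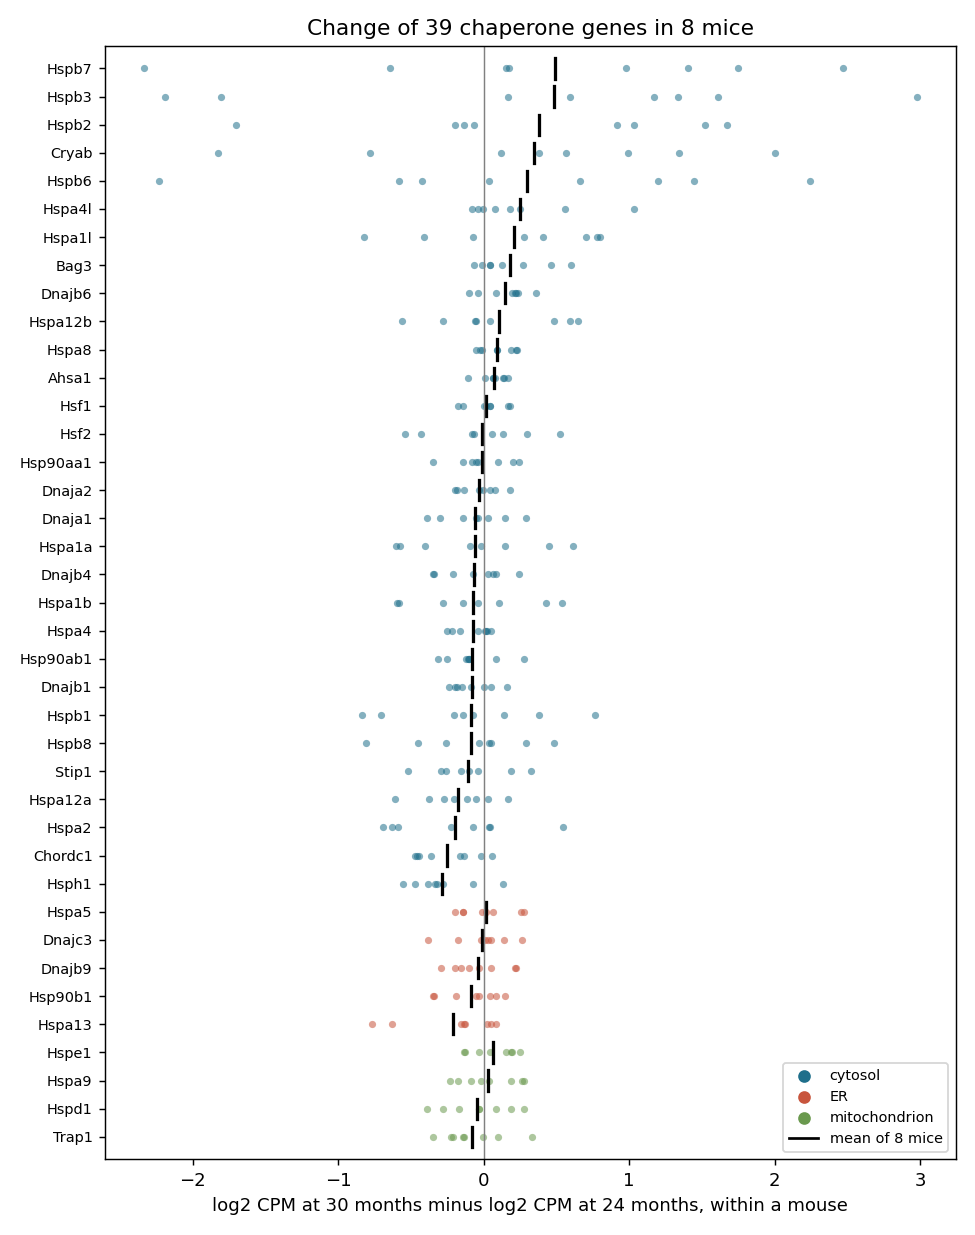
Change of each of the 39 chaperone genes. Each point is the log2 CPM at 30 months minus that at 24 months in 1 of 8 mice, black ticks are means over the mice, and colours give the compartment; 5 small heat shock genes at the top scatter from -2.33 to 2.98, whereas most other members stay close to 0.

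Expression per exon length (RPKM, the CPM divided by the exon length in kilobases) spanned a wide range within the group. Hsp90ab1, the constitutive cytosolic HSP90, stood first with 404 ± 37.5 RPKM (SD, n = 16 libraries), and its lowest library (331 RPKM) exceeded the highest of Hspb1 (316 RPKM). Hspb1, the small heat shock protein HSP25/27, followed with 191 ± 49.2 RPKM and Hspb8, a partner of Bag3 in selective autophagy, with 92.1 ± 17.1 RPKM. Below them in mean level came a set whose library ranges overlapped one another and that of Hspb8 (65.1 to 119 RPKM). Among them were Hspa1b (72.6 ± 12.5 RPKM), the ER HSP70 Hspa5 (70.3 ± 7.03 RPKM) and Cryab (65.4 ± 32.5 RPKM, highest library 143 RPKM). The J-protein Dnaja2 (64.6 ± 4.36 RPKM), the constitutive HSP70 Hspa8 (62.3 ± 4.34 RPKM) and the mitochondrial HSP70 Hspa9 (57.3 ± 4.24 RPKM) also belonged to this set. Hsp90aa1, the inducible HSP90, measured only 17.6 ± 1.57 RPKM, and Hspa1l, an HSP70 gene best known from testis, was the lowest member at 0.616 ± 0.162 RPKM. The order rests on counts that other gene entries can share, since 47.5% of the 50-base windows of Hsp90aa1 and 50.1% of those of Hspb1 also occur in transcripts of other genes. For Hspa1l the share was 71.4%, all of it with Gm10501, an annotated gene on the same bases.

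**Figure D2:**
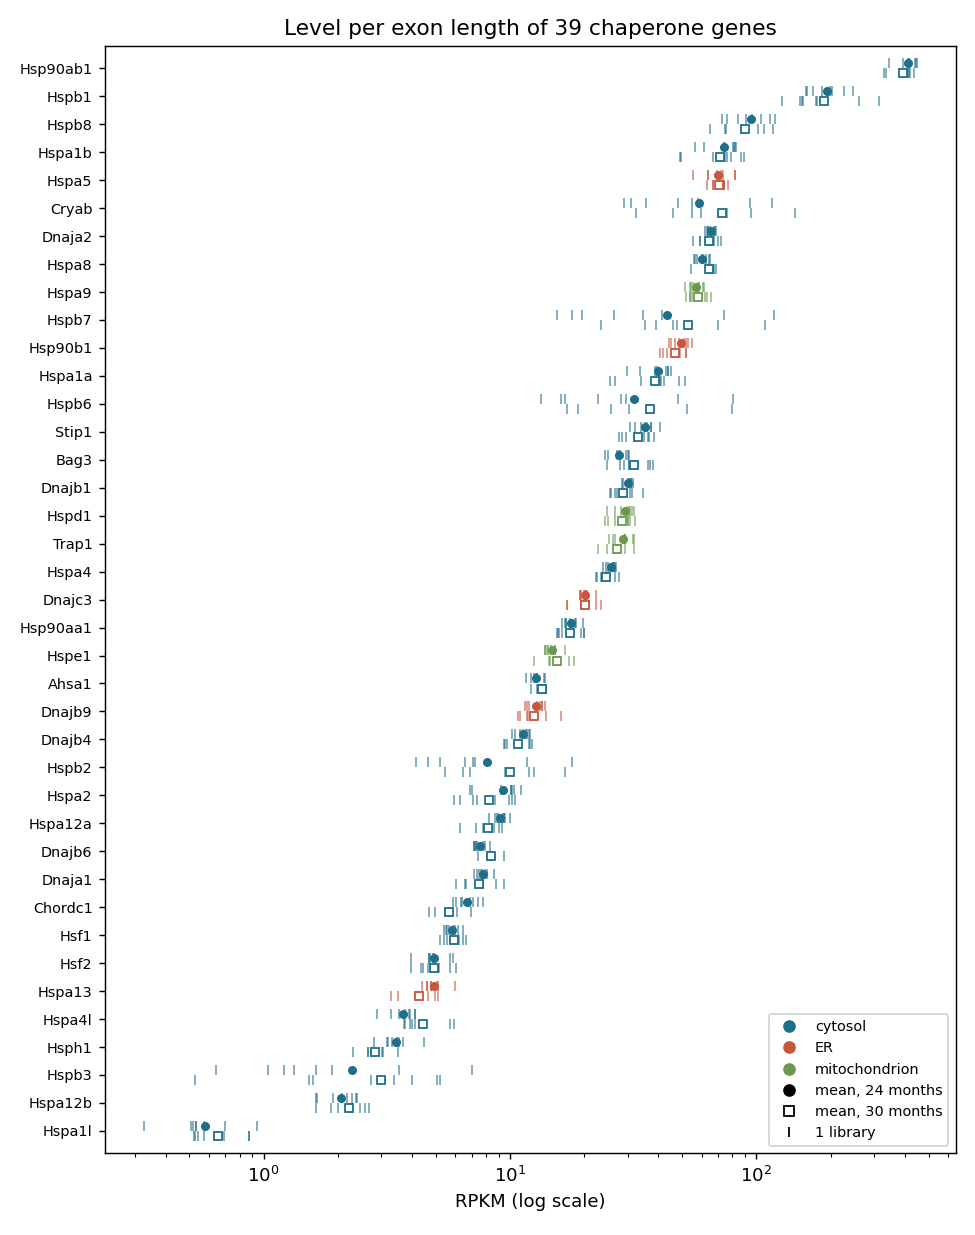
Level of each chaperone gene per exon length on a log axis (RPKM). Ticks are single libraries, filled circles are means of 8 libraries at 24 months and open squares means at 30 months; Hsp90ab1 lies at the top near 404 RPKM and Hspa1l at the bottom near 0.616 RPKM, and the mean of each gene moves little between the ages compared with the distance between genes.

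The spread between mice was larger at the later age for 30 of 39 members (76.9%), which is the share found over all genes tested (77.0%). The median coefficient of variation (CV) of the members was 8.58% at 24 months and 12.3% at 30 months, beside 12.9% and 19.1% for all genes. The steadiest members at 24 months were the J-proteins Dnajb1 (CV 3.63%) and Dnaja2 (3.89%) and the HSP110 protein Hspa4 (4.23%).

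Hsph1 encodes HSP110 (HSP105), which resets HSP70 and helps to dissolve protein aggregates, and lies at chr5:149614287-149636376 on the minus strand (GRCm38). It ranged from 20.4 to 32.5 CPM at 24 months (median 24.7) and from 16.8 to 25.6 CPM at 30 months (median 20.001). Mouse 29 held the highest value at 24 months and mouse 64 the lowest at both ages, and the ages overlapped. Within mice, Hsph1 was lower at 30 months in 7 of 8 and higher in mouse 14. Its log2 fold change was -0.28 (SE 0.08), or 17.9% lower, with an adjusted p of 0.279 in edgeR's test, which did not pass.

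Chordc1 encodes a zinc-binding HSP90 co-chaperone and lies at chr9:18292125-18317442 on the plus strand (GRCm38). It measured 44.0 to 58.2 CPM at 24 months (median 49.9) and 35.3 to 52.1 CPM at 30 months (median 42.4). It was lower in 7 of 8 mice, with mouse 64 the exception, and the change in those 7 ran from -0.02 in mouse 14 to -0.47 in mouse 75 on the log2 scale. The 2 ages overlapped in their libraries. A log2 fold change of -0.25 (SE 0.08), 15.9% lower, came with an adjusted p of 0.285 in edgeR's test. Being lower in at least 7 of 8 mice was found for these 2 of 39 members and for 8.29% of all genes.

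On the opposite side stood Dnajb6, a J-protein that suppresses aggregation of polyglutamine proteins, and Bag3, a nucleotide exchange factor that couples HSP70 and Hspb8 to autophagy. Dnajb6 ran from 43.5 to 50.1 CPM at 24 months (median 44.3) and from 44.9 to 57.3 CPM at 30 months (median 50.5). It was higher in 6 of 8 mice, lower in mice 43 and 50, and the ages overlapped. Bag3 ran from 62.3 to 78.2 CPM (median 71.1) and then from 63.3 to 97.5 CPM (median 77.9), and was likewise higher in 6 of 8 mice, with mouse 13 (0.60) and mouse 21 (0.46) the highest changes and mice 50 and 64 slightly below 0. The log2 fold changes were 0.15 (SE 0.06, adjusted p = 0.387) for Dnajb6 and 0.18 (SE 0.08, adjusted p = 0.409) for Bag3 in edgeR's test. Among the remaining co-chaperones, Ahsa1, which activates the ATPase of HSP90, was the only member higher in at least 7 of 8 mice (6.51% of all genes), with 56.1 ± 3.23 CPM at 24 months and 58.8 ± 2.85 CPM at 30 months and a log2 fold change of 0.07. Stip1 (HOP), the adaptor that joins HSP70 to HSP90, measured 74.7 ± 6.72 and 69.6 ± 8.55 CPM.

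**Figure D3:**
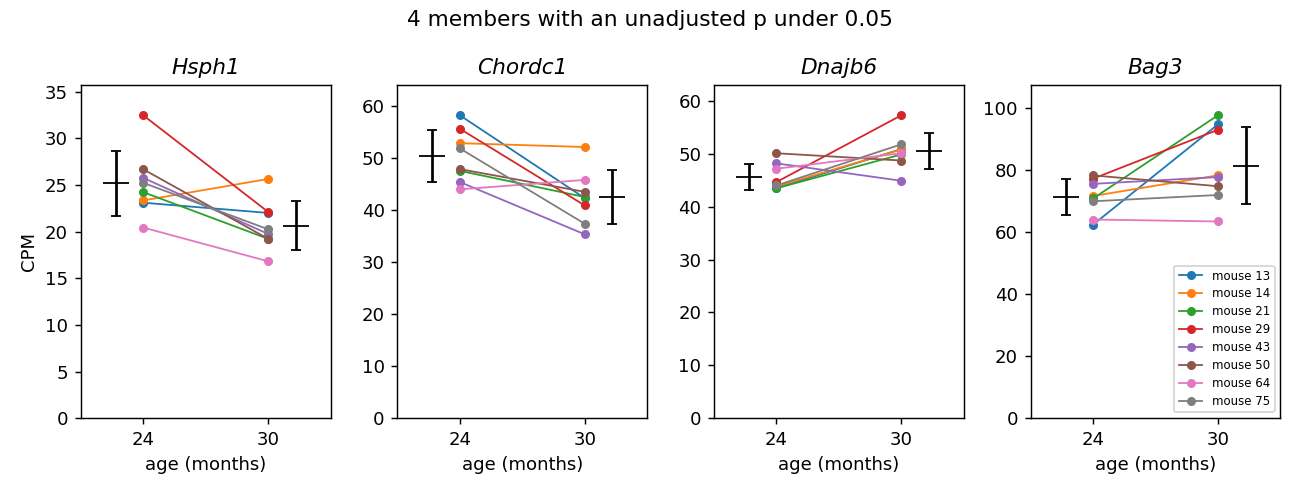
CPM of Hsph1, Chordc1, Dnajb6 and Bag3 at 24 and 30 months. Lines join the 2 biopsies of 1 mouse, and the black bars give the mean ± SD of 8 mice; Hsph1 and Chordc1 go down in 7 of 8 mice and Dnajb6 and Bag3 up in 6 of 8, with overlapping ages in each panel.

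The promoters of these genes were read for the heat shock element, the letters bound by heat shock factors. The letters searched were GAA, 2 bases of any kind, TTC, 2 bases of any kind and GAA, or the same with TTC and GAA exchanged, on both strands, in windows of 250 bases before to 50 bases after each start (RefSeq, GRCm38.p6). These letters were found in 198 of 32851 promoters (0.603%), and in 7 of the 41 windows available for 32 members (17.1%), which belonged to Chordc1, Dnajb6, Hspd1, Hspe1 and Hsph1. The 4 stretches are shown because they include the members with the lowest p. Capitals mark the matched bases, which in Chordc1 are 3 overlapping matches from 4 bases before the start to base 19 after it (chr9:18292217-18292296, plus strand), in Hsph1 1 match at bases 16 to 28 after the start (chr5:149636286-149636365, minus strand), in Dnajb6 1 match 46 to 34 bases before the start (chr5:29735798-29735897, plus strand), and in Hspe1 2 overlapping matches 89 to 72 bases before the start (chr1:55088033-55088102, plus strand). The mitochondrial pair Hspd1 and Hspe1 lies head to head, and the Hspe1 stretch read on the minus strand is also the stretch found for Hspd1.
Chordc1: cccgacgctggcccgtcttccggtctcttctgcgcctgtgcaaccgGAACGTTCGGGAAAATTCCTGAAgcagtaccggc
Hsph1: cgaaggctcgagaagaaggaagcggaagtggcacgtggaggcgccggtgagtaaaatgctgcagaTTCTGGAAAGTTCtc
Dnajb6: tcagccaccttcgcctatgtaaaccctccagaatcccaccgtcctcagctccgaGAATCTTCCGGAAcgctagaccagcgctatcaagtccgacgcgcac
Hspe1: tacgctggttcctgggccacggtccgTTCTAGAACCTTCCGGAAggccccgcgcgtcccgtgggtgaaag

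The 5 members with these letters did not move in one direction. Hsph1 and Chordc1 were lower, Dnajb6 was higher, and Hspd1 (-0.04) and Hspe1 (0.07) were near 0 on the log2 scale. Absence of the strict letters in another window says only that they were not found there. The factors themselves were level: Hsf1 measured 41.4 ± 2.56 CPM at 24 months and 41.9 ± 3.67 CPM at 30 months, and Hsf2 47.3 ± 5.97 and 47.0 ± 6.74 CPM.

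Hspa1a and Hspa1b, the stress-inducible HSP70 genes, lie side by side on the minus strand at chr17:34969190-34972156 and chr17:34956436-34959238 (GRCm38). They are near-identical copies: 66.3% of the 50-base windows of Hspa1a occur in other genes (58.8% in Hspa1b) and 62.3% of those of Hspa1b occur in Hspa1a, so how reads were divided between them is uncertain. Hspa1a ranged from 88.7 to 133 CPM at 24 months (median 123) and from 75.9 to 153 CPM at 30 months (median 122). Hspa1b ranged from 158 to 231 CPM (median 216) and then from 138 to 249 CPM (median 211). For both genes the range at 30 months reached below and above that at 24 months, and the mean change was small, with log2 fold changes of -0.06 (SE 0.14) and -0.07 (SE 0.13) and adjusted p of 0.879 and 0.844 in edgeR's test.

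Single mice differed much more than the means. Hspa1a was higher at 30 months by 0.61 in mouse 43 and 0.45 in mouse 13, and lower by -0.60 in mouse 64, -0.57 in mouse 50 and -0.40 in mouse 21 on the log2 scale. Hspa1b followed it to within 0.13 in every mouse, and the ratio of Hspa1b to Hspa1a stayed between 1.63 and 1.86 over the 16 libraries. Hspa2, an HSP70 gene with no 50-base window shared with another gene, was also highest in mouse 43 (0.55) and low in mice 50 (-0.69), 64 (-0.63) and 75 (-0.59), with a log2 fold change of -0.20. With 1 mouse left out, the log2 fold change of Hspa2 ran from -0.30 to -0.13. The summed basal keratinocyte markers were higher in mice 13 (0.55), 21 (0.28) and 43 (0.17) and lower in mice 50 (-0.69), 29 (-0.44), 64 (-0.40), 75 (-0.19) and 14 (-0.14). Their direction was that of Hspa1a in 6 of 8 mice and opposite to it in mice 21 and 29. The summed differentiated keratinocyte markers were higher in mice 43 (0.15) and 75 (0.12). They were lower in mice 29 (-0.85), 50 (-0.62), 64 (-0.30), 21 (-0.27), 14 (-0.21) and 13 (-0.11). Their direction was opposite to that of Hspa1a in mice 13, 29 and 75. The part of both marker lists in these values was not tested.

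The constitutive Hspa8 measured 259 ± 15.1 and 277 ± 18.7 CPM (log2 fold change 0.09), and 39.4% of its 50-base windows occur in other genes. Hspa12a, a divergent HSP70, was lower in 6 of 8 mice (84.0 ± 5.06 to 74.7 ± 9.03 CPM, log2 fold change -0.18, adjusted p = 0.424 in edgeR's test). Its log2 fold change ran from -0.22 to -0.12 with 1 mouse left out. Hspa12b, its paralogue known from endothelial cells, measured 7.61 ± 1.13 and 8.20 ± 1.34 CPM, while 8 of 8 endothelial markers were higher at 30 months, 6 of them at an unadjusted p under 0.05 and 0 after adjustment. Hspa4 differed little (142 ± 6.02 and 136 ± 10.9 CPM), and its relative Hspa4l stood at 43.6 ± 5.05 and 52.2 ± 10.4 CPM with the largest change in mouse 43 (1.03). The log2 fold change of Hspa4l was 0.25, and it ran from 0.14 to 0.30 with 1 mouse left out. Hsp90ab1 was lower in 6 of 8 mice at 1242 ± 101 against 1179 ± 121 CPM, and Hsp90aa1 was level at 69.2 ± 4.61 and 68.9 ± 7.74 CPM. The J-proteins Dnaja1, Dnaja2, Dnajb1 and Dnajb4 all had small negative log2 fold changes, from -0.03 to -0.08. With 1 mouse left out, Dnaja1 ran from -0.11 to 0.00257 and Dnaja2 from -0.05 to -0.0006. Dnajb1 then ran from -0.11 to -0.06 and Dnajb4 from -0.11 to -0.02.

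The most variable members were 5 small heat shock genes, Hspb2, Hspb3, Hspb6, Hspb7 and Cryab, which were set apart after their values were seen. Their CV at 24 months lay between 53.3% and 91.8%, against 30.8% or less for the other 34 members. Hspb7, a cardiovascular and muscle small heat shock protein at chr4:141420779-141425311 on the plus strand (GRCm38), had the largest positive log2 fold change of all members, 0.54 (SE 0.47), with an adjusted p of 0.650 in edgeR's test. It ran from 43.02 to 327 CPM at 24 months (median 84.8) and from 64.9 to 301 CPM at 30 months (median 129). Both extremes belonged to single libraries, mouse 43 at 24 months and mouse 13 at 30 months, and the later range lay inside the earlier one. The other 4 also had positive log2 fold changes, namely 0.53 for Hspb3, 0.40 for Hspb2, 0.37 for Cryab (alpha-B-crystallin) and 0.32 for Hspb6, and none passed the test. Hspb2 and Cryab are neighbours whose exons overlap on opposite strands (30.2% of the exon bases of Hspb2), so that their counts may not be separable.

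Within mice, these 5 genes moved by several fold in opposite directions. Their median log2 change was 2.00 in mouse 13, 1.52 in mouse 21, 1.20 in mouse 14 and 0.98 in mouse 64, and all 5 were higher in each of these mice. It was -2.19 in mouse 43, where all 5 were lower, and -0.42, -0.07 and 0.12 in mice 50, 29 and 75. In these last mice 1, 2 and 4 of the 5 were higher. The genes split most widely in mouse 29, from -1.81 for Hspb3 to 0.38 for Cryab. The summed skeletal muscle markers moved by 2.87 in mouse 13, 2.54 in mouse 21, 1.52 in mouse 14, 1.12 in mouse 64, 0.20 in mouse 50, 0.10 in mouse 75, -0.33 in mouse 29 and -2.88 in mouse 43. The highest library for these markers at each age was also the highest for Hspb7. All 15 muscle markers had a positive log2 fold change (median 0.75) and 0 had an unadjusted p under 0.05 in edgeR's test. The 9 smooth muscle markers, summed, moved by 1.28 in mouse 13, 0.80 in mouse 21, 0.30 in mouse 14 and 0.10 in mouse 64. In mice 50, 29, 75 and 43 they moved by 0.24, 0.19, -0.07 and -0.88. Summed fat cell (-1.93) and endothelial (-0.52) markers were also lower in mouse 43, and each of these 2 sums was higher in 7 of 8 mice. The part of the muscle, fat cell and endothelial markers in the values of the 5 genes was not tested. Leaving out 1 mouse moved these log2 fold changes widely, with none passing the test and each still above 0: Hspb7 ran from 0.27 without mouse 13 to 0.90 without mouse 43, Hspb3 from 0.21 without mouse 21 to 0.92 without mouse 43, and without mouse 13 and without mouse 43 respectively Hspb2 stood at 0.22 and 0.68, Cryab at 0.15 and 0.67, and Hspb6 at 0.06 and 0.65.

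**Figure D4:**
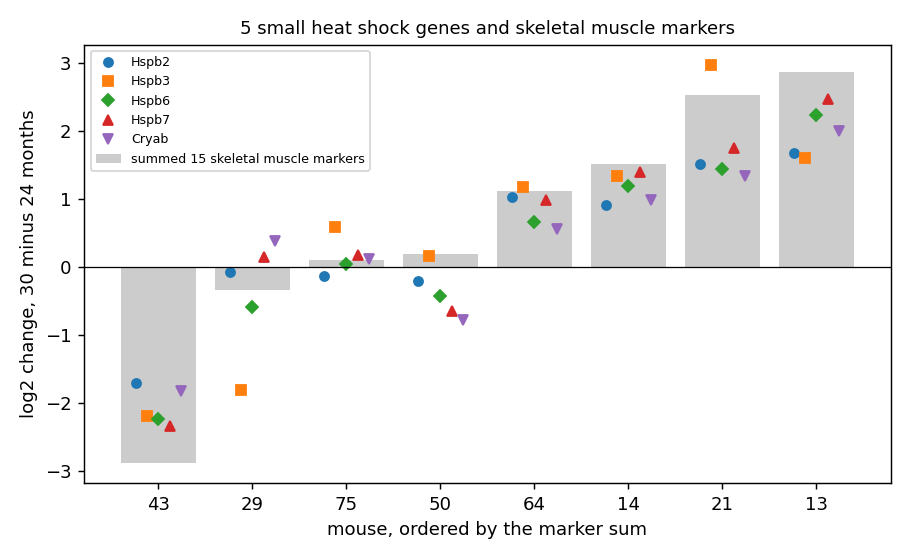
Within-mouse log2 change of Hspb2, Hspb3, Hspb6, Hspb7 and Cryab (symbols) and of the summed CPM of 15 skeletal muscle markers (grey bars), with the mice ordered by the marker sum. Genes and bars lie together at the ends, from -1.70 to -2.88 in mouse 43 and from 1.61 to 2.87 in mouse 13.

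Hspb1 and Hspb8, the remaining small heat shock genes, stood higher per exon length and varied less, with a CV of 16.3% and 18.01% at 24 months. Hspb1 measured 200 ± 32.5 CPM at 24 months and 195 ± 66.6 CPM at 30 months, with changes from -0.84 in mouse 50 to 0.77 in mouse 29. Hspb8 measured 185 ± 33.3 and 175 ± 34.9 CPM, with its lowest change also in mouse 50 (-0.81). Without the 5 variable genes, the other 34 members counted 11 higher and 23 lower, with a median log2 fold change of -0.05.

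In the ER, no member had an unadjusted p under 0.05. Hspa13, an ER-associated HSP70 (chr16:75745431-75767104, minus strand, GRCm38), had the largest negative log2 fold change of the compartment, -0.21 (SE 0.10, adjusted p = 0.455 in edgeR's test). It ran from 30.1 to 40.9 CPM at 24 months (median 32.7) and from 22.5 to 35.0 CPM at 30 months (median 29.3). The change rested on mice 13 (-0.77) and 29 (-0.63), while the other 6 mice lay between -0.15 and 0.08, and the log2 fold change was -0.11 without mouse 13. Hspa5 (BiP), the central ER chaperone at chr2:34771970-34777547 on the plus strand (GRCm38), had the largest positive value, 0.02 (SE 0.07), at 235 to 346 CPM at 24 months (median 299) and 265 to 325 CPM at 30 months (median 302). The later range lay wholly inside the earlier one. Hsp90b1 (GRP94), the ER HSP90, measured 199 ± 15.3 and 188 ± 17.01 CPM, the J-protein Dnajb9 32.6 ± 2.29 and 31.9 ± 4.52 CPM, and Dnajc3 (p58IPK) 104 ± 5.11 and 103 ± 11.6 CPM.

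Although flat on average, the 5 ER genes had the same sign within some animals. All 5 were lower at 30 months in mouse 13 (median -0.35) and all 5 were higher in mouse 50 (median 0.15) and in mouse 64 (median 0.09). The summed level of 27 further genes of ER folding changed by -0.03, 0.15 and -0.09 in these 3 mice, so that it went with the 5 genes in mouse 50, was near 0 in mouse 13 and had the opposite sign in mouse 64. Nor was a shared sign seen in ER genes alone, as all 7 cytosolic HSP70 genes and all 7 small heat shock genes were higher in mouse 13. The promoters of some of these genes hold the ER stress element. This element, searched as CCAAT, 9 bases of any kind and CCACG on both strands, was found in 39 of 32851 promoters (0.119%) and in 3 of the 41 member windows (7.32%), all of ER genes, Hspa5, Hsp90b1 and Dnajc3. These stretches are shown with the element in capitals: 1 match 65 to 47 bases before the start of Hspa5 (chr2:34771990-34772069, plus strand), 2 matches between 212 and 89 bases before that of Hsp90b1 (chr10:86705525-86705674, minus strand), and 1 match 105 to 87 bases before that of Dnajc3 (chr14:118937802-118937881, plus strand).
Hspa5: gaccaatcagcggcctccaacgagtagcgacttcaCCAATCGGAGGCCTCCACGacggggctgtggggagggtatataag
Hsp90b1: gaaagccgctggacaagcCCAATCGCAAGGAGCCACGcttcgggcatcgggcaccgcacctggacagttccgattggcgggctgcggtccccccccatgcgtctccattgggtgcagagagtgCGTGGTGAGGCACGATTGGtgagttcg
Dnajc3: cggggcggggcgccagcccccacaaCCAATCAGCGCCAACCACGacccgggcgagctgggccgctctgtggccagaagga

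The summed fibroblast markers, from cells that secrete collagen, were lower in mouse 13 (-0.82) and higher in mouse 50 (1.82), but lower in mouse 64 (-0.51). Summed macrophage markers changed by -1.04, 1.76 and 0.38 in mice 13, 50 and 64. Mast cell markers changed by -0.80, 1.29 and 0.08 in these mice, and both sums had the signs of the 5 ER genes there. T cell markers were lower in mouse 64 (-0.21). In mouse 75 macrophage markers were higher (0.77), while the median of the 5 ER genes was -0.14. The library of mouse 50 at 30 months also held the highest sums of macrophage (2239 CPM) and T cell (207 CPM) markers. The part of these cells in the ER values was not tested.

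**Figure D5:**
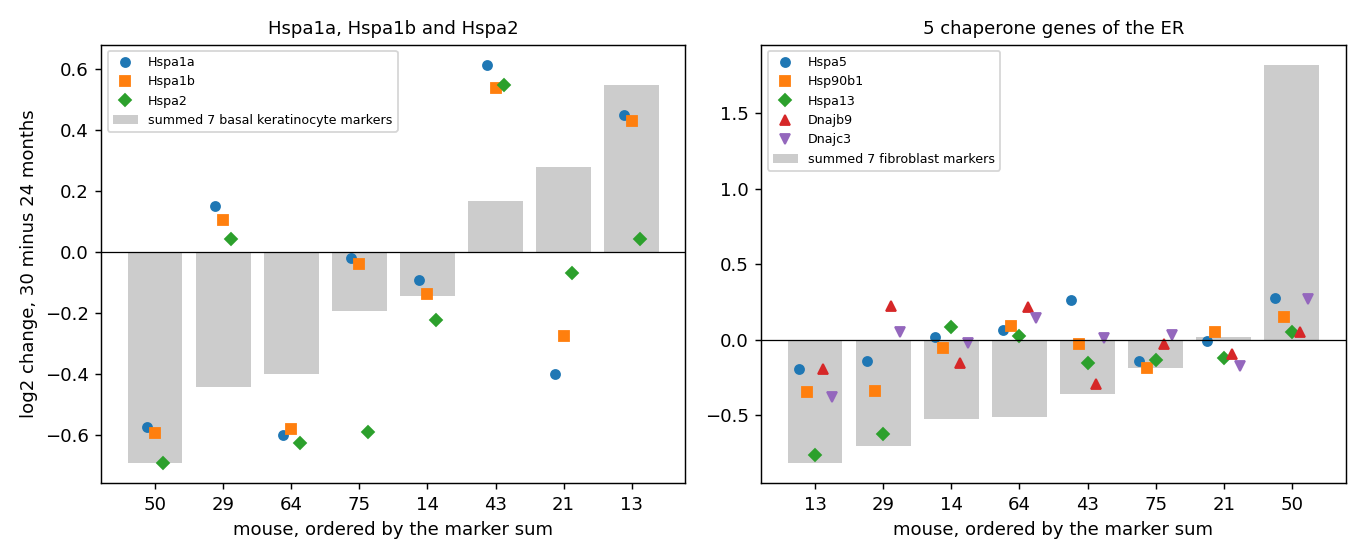
Within-mouse log2 changes of Hspa1a, Hspa1b and Hspa2 beside the summed 7 basal keratinocyte markers (left, grey bars) and of the 5 ER genes beside the summed 7 fibroblast markers (right, grey bars), mice ordered by the marker sum. Hspa1a and Hspa1b lie within 0.13 of each other in each mouse, with Hspa1a from -0.60 to 0.61, and the 5 ER genes lie all below 0 in mouse 13 and all above 0 in mice 50 and 64.

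The mitochondrial members kept nearly the same summed level, 417 ± 21.7 CPM at 24 months and 418 ± 33.7 CPM at 30 months. Hspe1, the HSP10 lid of the mitochondrial chaperonin (chr1:55088132-55091307, plus strand, GRCm38), had the largest positive log2 fold change, 0.07 (SE 0.07, adjusted p = 0.705 in edgeR's test). It ran from 20.4 to 24.6 CPM at 24 months (median 21.3) and from 18.5 to 26.7 CPM at 30 months (median 22.9), a wider range around nearly the same centre. Its partner Hspd1 (HSP60) measured 77.4 ± 6.59 and 75.1 ± 7.51 CPM, and the genes, which share their promoter stretch above, moved in opposite directions in 4 of 8 mice. Of the 50-base windows of Hspd1, 42.1% occur in other genes, most of them in a pseudogene copy.

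Trap1, the mitochondrial HSP90 (chr16:4039971-4077827, minus strand, GRCm38), had the largest negative value, -0.08 (SE 0.08, adjusted p = 0.681 in edgeR's test). It ran from 64.9 to 82.1 CPM at 24 months (median 75.4) and from 58.5 to 81.7 CPM at 30 months (median 69.8), lower in 6 of 8 mice but higher by 0.33 in mouse 13. Its log2 fold change was -0.04 without mouse 29 and -0.13 without mouse 13, and that of Hspe1 was 0.04 without mouse 14 and 0.11 without mouse 13. Hspa9 (mortalin), which pulls imported proteins into the matrix, measured 244 ± 14.8 and 250 ± 21.9 CPM.

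Further genes of the protein folding network were read from the same fit. Of 83 such genes, 43 were higher and 40 lower, and at an unadjusted p under 0.05 in edgeR's test 4 were higher and 4 lower (4.82% each, against 4.86% and 7.18% of all genes). None passed after adjustment (0 of 83). The 8 subunits of the cytosolic chaperonin CCT, which folds actin and tubulin, lay between -0.03 and 0.04 on the log2 scale (2 higher, 6 lower). All 6 prefoldin subunits, which deliver substrates to CCT, were slightly higher (0.003 to 0.12), and none of the 14 genes of both complexes had an unadjusted p under 0.05. Of 27 other cytosolic co-chaperones, 15 were higher and 12 lower, and the largest change among those with an unadjusted p under 0.05 was that of Ppid (cyclophilin 40), an HSP90 partner with 54.8 ± 4.11 and 46.9 ± 5.97 CPM that was lower in 8 of 8 mice without passing the test (log2 fold change -0.23, adjusted p = 0.234 in edgeR's test). Of the others with an unadjusted p under 0.05, Fkbp4 and Dnajb2 were lower in 8 of 8 mice and Bag5 and Tomm34 higher in 7 of 8. Counting by mice alone, 3 of the 27 were lower and 4 higher (Dnajb5 and Hspbp1 too) in at least 7 of 8 mice, which was so for 8.29% and 6.51% of all genes. In the other network lists, only Pdia4 was lower in 7 of 8 mice. Atf4, Sil1 and the mitochondrial Clpp and Grpel2 were higher in 7 of 8. Of 27 genes of ER folding and the unfolded protein response, 10 were higher and 17 lower, with Pdia4, a disulfide isomerase, lower by the largest amount of those with an unadjusted p under 0.05 (log2 fold change -0.20, adjusted p = 0.366 in edgeR's test) and Atf4 and Sil1 higher. The 15 genes of mitochondrial folding and proteolysis counted 10 higher and 5 lower, none with an unadjusted p under 0.05. Immediate-early genes, which respond to handling within minutes, are set beside these values because their summed level was higher at 30 months in 8 of 8 mice (changes of 0.13 to 1.20). Of those 16 genes, 9 were higher at an unadjusted p under 0.05 and 0 passed after adjustment, and their part in the chaperone values was not tested.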

How the data were processed

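Total RNA of ear biopsies was sequenced (TruSeq RNA kit v2). The authors deposited a table of raw read counts per gene and library, and their processing notes name CASAVA 1.8.4, TopHat2 2.1.0, HTSeq 0.6.1p1 and mm10; a strand setting is not given in the sources used here. Summary lines that name no gene held 18.7% to 21.1% of reads and were left out. Gene names and exon lengths came from GENCODE M21 (GRCm38) for 45143 of 45706 identifiers, and the others held 0.130% of counts.

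From these counts, CPM used library sizes scaled by TMM, RPKM divided CPM by the union exon length, and within-mouse changes used a prior count of 0.5. Genes were tested with edgeR 4.0.16 (quasi-likelihood, filterByExpr, Benjamini-Hochberg adjustment over 21526 genes, threshold 0.05) in R 4.3.3 with the mouse as a block, since both biopsies came from the same animals. Deviations from the age means correlated by a median of -0.02 (-0.43 to 0.32) for the 8 pairs of the same mouse. For the 56 pairs of different mice the median was -0.005 (-0.36 to 0.48), so that libraries of the same mouse were no more alike. DESeq2 1.42.0, limma 3.58.1, other scalings and filters, no block, exact age and leaving out each mouse were alternatives. On data simulated for the 30 against 24 months comparison, 184 of 200 genes changed by 1 on the log2 scale were recovered and 17 of the unchanged genes were called, among 21298 genes. The changed genes were drawn only from those above a minimum expected count. Apart from the change, each gene had the same mean in all libraries, so that differences in cell content between biopsies were not simulated. The recovery therefore does not give that for the real libraries. Changes as small as those of most members were not simulated. SDs and p-values cover 8 mice.

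Members, marker lists and network lists were chosen with earlier results of these data known. Named in full were members lower or higher in at least 7 of 8 mice with an unadjusted p under 0.05, the largest change in each direction per compartment, and Hspa1a with Hspa1b; of each network list, the gene with the largest change among those with an unadjusted p under 0.05. Dnajb6, Bag3 and other members were added to complete the families.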

Additional observations from a re-analysis of the deposited data

Results flagged for a closer look

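For each of the 39 members, the 8 levels at each age and the 8 within-mouse changes were examined by Dixon's criterion, 117 sets in all. Of these, 4 sets of levels and 0 sets of changes had 1 value far from the rest, where chance alone gives about 1 in 20, or 5.85 of 117. At 24 months, mouse 13 held the highest values of Hspa13 (40.9 CPM, next 34.7 CPM) and of Dnajc3 (115 CPM, next 106 CPM), both ER genes, and mouse 43 held the highest value of Hspb3 (5.49 CPM, next 2.77 CPM). At 30 months, mouse 64 held the lowest value of Hspa8 (234 CPM, next 274 CPM).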

How the results depend on the processing

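No member passed an adjusted p of 0.05 in any of the fits run, and the lowest adjusted p of a member was 0.120 (Hsph1, DESeq2). The Wald test of DESeq2 called 240 genes. Pairing mattered for counts: with no replicate block 3 genes were called, 1708 genes were higher and 1633 lower at an unadjusted p under 0.05 (1047 and 1546 with the block, so the larger side turned), and 7 members had an unadjusted p under 0.05. The block changed no member's call. Leaving out each mouse gave 2 to 8 members at an unadjusted p under 0.05 (8 without mouse 43, among them Hspb2, Hspb7 and Cryab; 2 without mouse 14, 21 or 29), 764 to 1927 genes higher and 998 to 1845 lower. Hsph1 (-0.34 to -0.24) and Chordc1 (-0.29 to -0.21) kept direction and an unadjusted p under 0.05 without each mouse, whereas Bag3 and Dnajb6 lost it without mouse 14, 21 or 29, among others. The sign held in all 8-mouse fits for 38 of 39 members (Dnajc3 was 0.000428 with exact age) and in every fit for 28. Without single mice the sign turned for Hsp90aa1 (-0.0495 to 0.0461), Dnaja1 (-0.11 to 0.00257), Dnajc3 (-0.0490 to 0.0546), Hsf2 (-0.0876 to 0.0646), Hspd1 (-0.0840 to 0.00990), Hspb1 (-0.20 to 0.0252), Hspb8 (-0.16 to 0.0181), Hspa5 (-0.0214 to 0.0565), Dnajb9 (-0.0716 to 0.00767), Hspa1a (-0.15 to 0.0181) and Hspa1b (-0.15 to 0.00540), and the members' median ran from -0.05 to 0.01. The cause was not tested. Counts of 12 (Hspb3) and 24 (Hspa1l) in their lowest libraries limit the precision of these 2 genes.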
